A study of Drosophila melanogaster with 6 samples.

Results

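The genes described here are 42 genes of the synaptic vesicle and the presynaptic active zone, chosen by their symbols from known roles in transmitter release and synapse formation. Earlier results of these data were known when they were chosen, so the counts below are descriptions and not independent support. All 42 are among the 17649 genes of the deposited table. They fall into 7 genes of SNARE proteins and their regulators, 5 of the active zone scaffold and of vesicle priming, 5 of the presynaptic calcium channel and calcium sensors, 7 synaptotagmins, 3 further vesicle-associated proteins, 8 genes of endocytosis and vesicle recycling, 5 of neurexin and the neuroligins, and 2 regulators of synapse growth. Whole pupal eyes of *Canton S*, a wild-type strain of *Drosophila melanogaster*, were compared between 40 h and 21 h APF (hours after puparium formation). Each stage had 3 RNA-seq libraries, each from a pool of dissected eyes. The deposited levels are FPKM, a fragment density scaled to transcript length and library size, given as 1 pooled value per gene and stage. Levels are therefore the authors' pooled values, without replicate error, and no difference below could be tested against the spread between libraries. The depth behind a value is unknown from the table.

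A chemical synapse releases transmitter when calcium enters through channels held at the active zone and a synaptotagmin triggers the fusion of a docked vesicle, which is driven by the SNARE proteins syntaxin, synaptobrevin and SNAP-25. Scaffold proteins tether vesicles near the channels, priming factors make them ready to fuse, and endocytosis retrieves the membrane afterwards. Photoreceptors of the fly eye send axons to the lamina and medulla, where they form histamine-releasing synapses during pupal life.

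At 40 h APF, 38 of the 42 genes had a higher level than at 21 h APF and 4 had a lower level. Of all 9442 genes with a mean of at least 1 FPKM over the stages, 49.2% were higher at 40 h. The 38 include *Sytalpha* and *stnA*, which were under that mean, and reads cannot tell *stnA* apart from *stnB*. Ratios are given as log2((FPKM at 40 h + 0.1)/(FPKM at 21 h + 0.1)), which understates the change of low genes, and a gene was called higher or lower when this ratio reached 2-fold and its mean was at least 1 FPKM. By this rule 16 of the 42 genes (38.1%) were called higher at 40 h, against 13.9% of the 9442 genes, and 1 gene (2.38%), *Sytbeta*, was called lower, against 9.62%. Another 22 genes changed less than 2-fold, 20 of them with a ratio above 0, and 3 genes (*Sytalpha*, *Nlg1* and *stnA*) were under a mean of 1 FPKM. The median log2 ratio over all 42 genes was 0.80, and over the 9442 genes it was -0.014. Nearest to the 2-fold limit stood *Ca-beta* at a log2 ratio of 1.04, inside it, and *Nlg3* at 0.97, outside it.

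**Figure D1:**
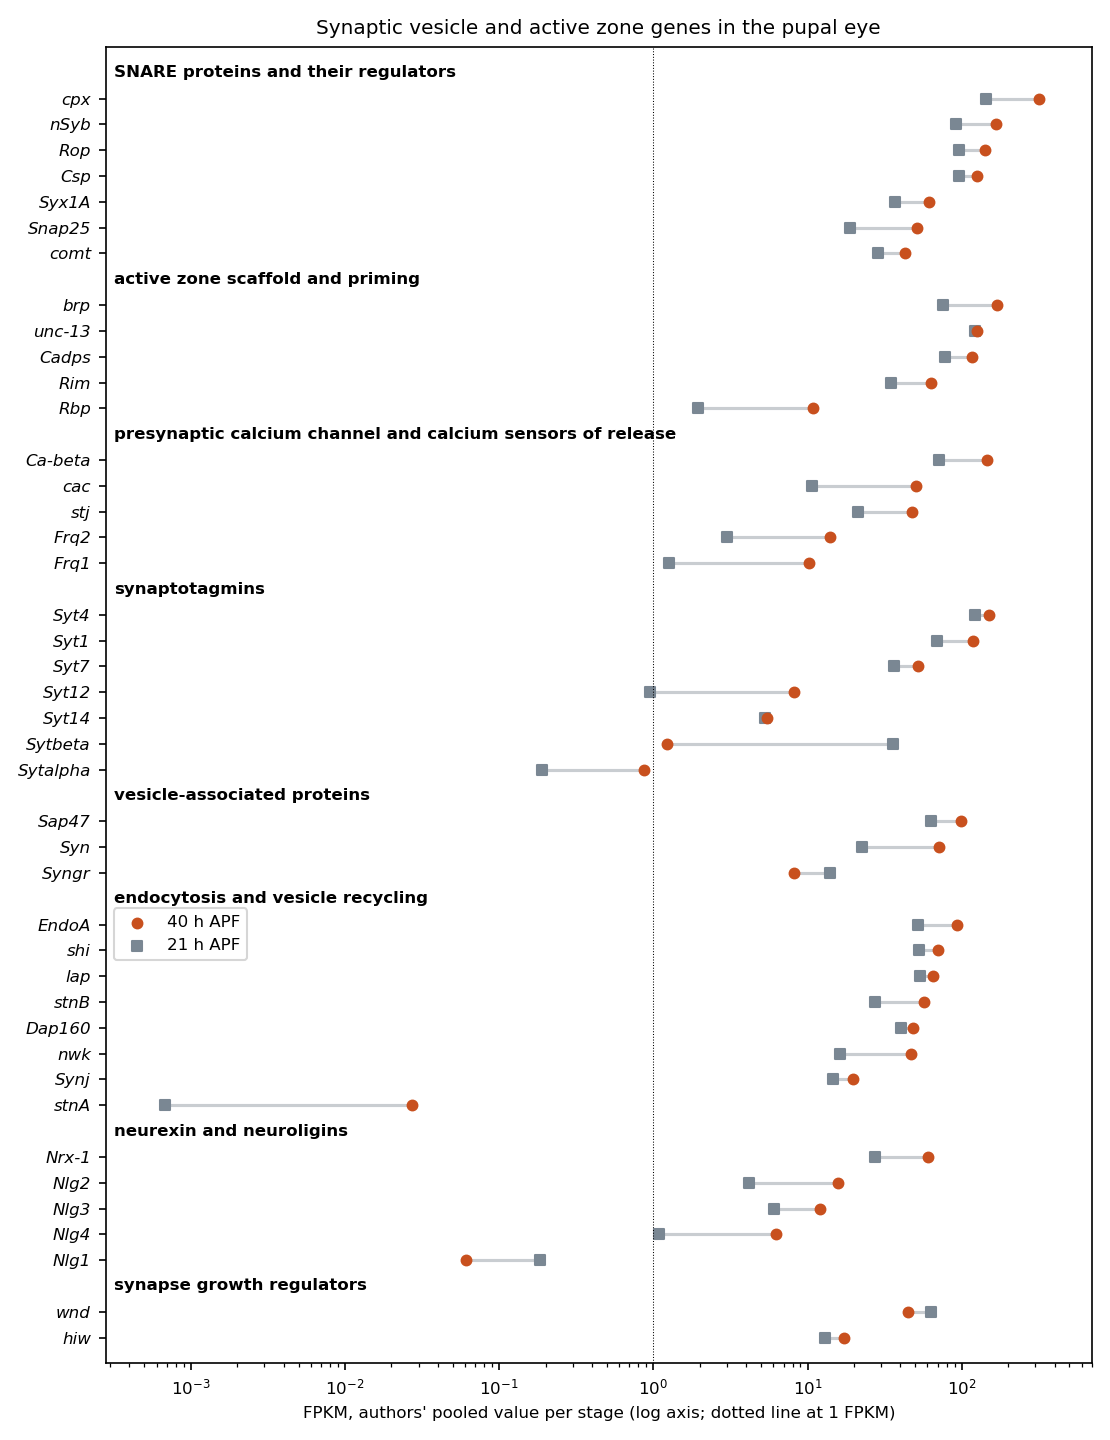
Level of each of the 42 genes at 40 h APF (orange circles) and 21 h APF (grey squares), grouped by role and ordered by the level at 40 h. The x axis is FPKM on a log scale, 1 pooled value per stage. Orange lies to the right of grey for 38 genes, and *Sytbeta* has the longest step to the left.

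The genes were abundant as a group. Their summed level was 2736 FPKM at 40 h, against 1676 at 21 h, with a median of 50.99 FPKM at 40 h, against 27.99 at 21 h. For the 9442 genes the medians were 18.1 FPKM at 40 h, against 17.3 at 21 h. A level of 100 FPKM was reached by 10 of the 42 genes at 40 h and by 3 (*cpx*, *Syt4* and *unc-13*) at 21 h. At least 10 FPKM at both stages was found for 29 genes. Among the 31 genes with a mean of at least 10 FPKM, 10 were called higher, against 11.1% of the 6391 genes with that mean, and 1 was called lower, against 5.62%.

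**Figure D2:**
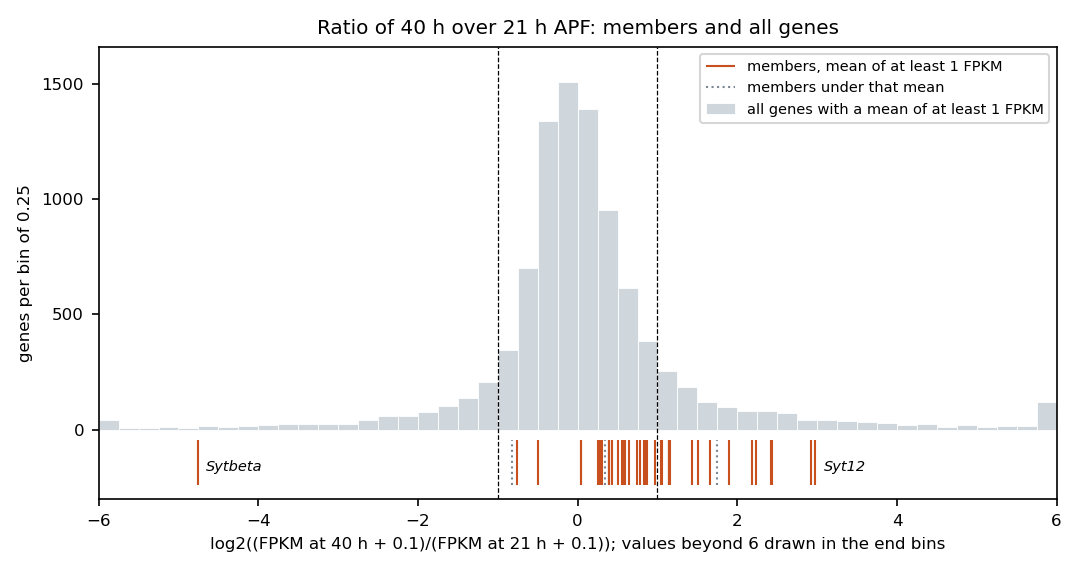
Log2 ratios of 40 h over 21 h APF. Bars count all 9442 genes with a mean of at least 1 FPKM in bins of 0.25, and ticks under them mark the synaptic genes (solid for 39 genes with that mean, dotted for 3 under it). Values beyond 6 are drawn in the end bins. Dashed lines mark 2-fold, which 16 ticks pass on the right and 1 on the left among the 39 genes.

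The core SNARE genes differed in how much they changed. *Snap25* (FBgn0011288, chromosome 3L, 24074180 to 24299205 of BDGP6), the plasma membrane SNARE that supplies a pair of helices to the fusion complex, had 51.2 FPKM at 40 h, against 19.0 at 21 h, 2.70-fold higher. *Syx1A* (FBgn0013343, chromosome 3R, 24101600 to 24105763), the syntaxin of the presynaptic membrane, had 61.8 FPKM at 40 h, against 36.9 at 21 h, and *nSyb* (FBgn0013342, chromosome 3L, 1630348 to 1637752), the neuronal synaptobrevin of the vesicle, had 166 FPKM at 40 h, against 91.7 at 21 h. Their ratios, 0.74 and 0.86 on the log2 scale, were under 2-fold. *nSyb* was thus 2.69 times the level of *Syx1A* at 40 h and 2.49 times at 21 h, whereas it was 3.25 times the level of *Snap25* at 40 h and 4.83 times at 21 h. Of the exon bases of *Syx1A*, 10.7% are shared with eIF4EHP on the same strand, which the table lists at 61.9 FPKM at 40 h, against 37.7 at 21 h, close to *Syx1A* at both stages, and the division of reads between the pair is uncertain.

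Among the regulators of the SNAREs, *cpx* (FBgn0041605, chromosome 3R, 4280221 to 4304604), which encodes complexin, a clamp and activator of fusion, was the most abundant of the 42 genes at both stages. It had 319 FPKM at 40 h, against 145 at 21 h, 2.21-fold higher, and at 40 h it stood above 97.3% of the 9442 genes. *Rop*, the Sec1/Munc18 partner of syntaxin, had 141 FPKM at 40 h, against 96.2 at 21 h. *Csp*, a vesicle chaperone, had 126 FPKM at 40 h, against 96.4 at 21 h, and *comt*, the NSF ATPase that takes spent SNARE complexes apart, had 43.1 FPKM at 40 h, against 28.6 at 21 h. All 7 genes of this role had a ratio above 0, with a median of 0.74, and 2 of them, *Snap25* and *cpx*, were called higher.

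Each of the neuronal genes *nSyb*, *Snap25* and *comt* has a broadly expressed relative in the fly genome. *Syb* had 139 FPKM at 40 h, against 145 at 21 h, *Snap24* had 35.95 FPKM at 40 h, against 32.5 at 21 h, and *Nsf2* had 24.5 FPKM at 40 h, against 24.99 at 21 h, so none of the 3 relatives was called in either direction. The level of *nSyb* was 1.20 times that of *Syb* at 40 h and 0.630 times at 21 h. That of *Snap25* was 1.43 times that of *Snap24* at 40 h and 0.585 times at 21 h, and that of *comt* was 1.76 times that of *Nsf2* at 40 h and 1.14 times at 21 h. In the SNAP-25 and synaptobrevin families the neuronal gene thus had the higher listed level at 40 h and the lower at 21 h. The alignment did not split reads across introns, and its effect on levels compared between genes was not tested.

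**Figure D3:**
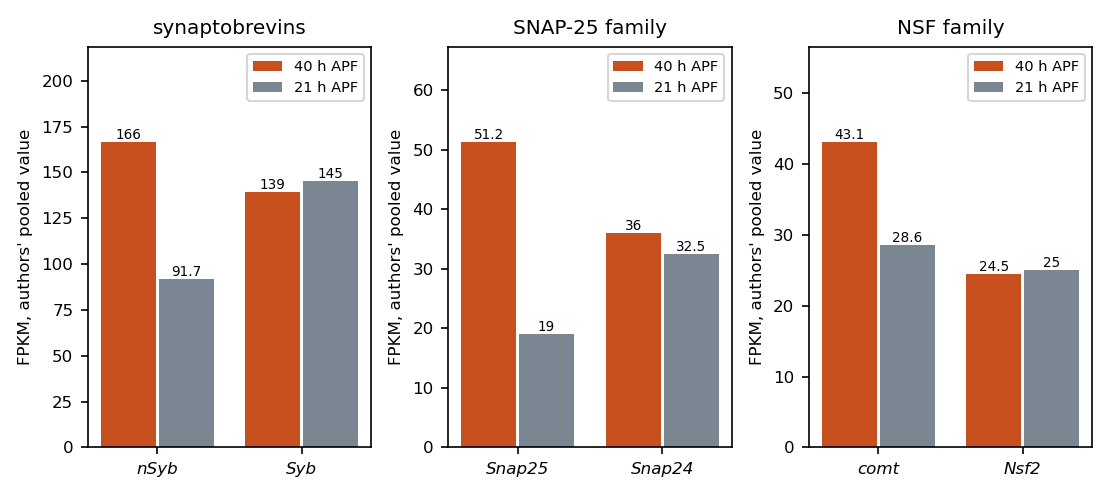
Level in FPKM, on a linear axis from 0, of 3 neuronal genes (left pair of bars in each panel) and their broadly expressed relatives (right pair) at 40 h APF (orange) and 21 h APF (grey), 1 pooled value per bar. *nSyb* and *Snap25* stand above *Syb* and *Snap24* at 40 h and below them at 21 h.

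At the active zone, *brp* (FBgn0259246, chromosome 2R, 9503765 to 9541565), which encodes Bruchpilot, the filament of the T-shaped release site, had 168 FPKM at 40 h, against 75.7 at 21 h, 2.22-fold higher. It was the second most abundant of the 42 genes at 40 h and ranked 8 at 21 h. *Rbp* (FBgn0262483, chromosome 3R, 15374635 to 15402543), the RIM-binding protein that links scaffold and calcium channel, was far lower, with 10.9 FPKM at 40 h, against 1.94 at 21 h, and changed more, 5.64-fold. *Rim*, another scaffold gene, had 63.2 FPKM at 40 h, against 34.6 at 21 h, a log2 ratio of 0.87. The level of *brp* was 2.66 times that of *Rim* at 40 h and 2.19 times at 21 h, but 15.4 times that of *Rbp* at 40 h and 39.1 times at 21 h.

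Both priming genes stayed under 2-fold. *unc-13* (FBgn0025726, chromosome 4, 867824 to 912331), needed for vesicles to become fusion-competent, had 125 FPKM at 40 h, against 121 at 21 h, a log2 ratio of 0.042. It was the third most abundant of the 42 genes at 21 h and ranked 8 at 40 h. Of its exon bases, 25.2% are shared with other genes, mostly with the antisense gene CR43425, and another gene listed at the same locus, CR44029, had 59.4 FPKM at 40 h, against 54.8 at 21 h. Whether reads were counted by strand is not given in the sources used here, so the level of *unc-13* is uncertain. *Cadps*, which encodes CAPS, a priming factor best known for dense core vesicles, had 117 FPKM at 40 h, against 78.1 at 21 h, a log2 ratio of 0.58.

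All 5 genes of the presynaptic calcium channel and the calcium sensor frequenin were called higher at 40 h, the only role of the 8 for which this held. Over the 9442 genes the share was 13.9%. All 5 span at least 10 kb, and over protein-coding genes of that span the share was 25.6%. *Ca-beta* and *stj* were not called at a 3-fold limit, nor *Frq1* and *Frq2* at a minimum mean of 10 FPKM. *cac* (FBgn0263111, chromosome X, 11931280 to 11985087) encodes the pore-forming subunit of the channel that triggers release, and had 50.7 FPKM at 40 h, against 10.7 at 21 h, 4.73-fold higher. Its auxiliary subunits changed less: *Ca-beta* (chromosome 2L, 11156118 to 11203544) had 147 FPKM at 40 h, against 71.2 at 21 h, 2.06-fold, and *stj* (chromosome 2R, 13805794 to 13819571), the alpha-2-delta subunit, had 47.6 FPKM at 40 h, against 21.4 at 21 h, 2.23-fold. *Ca-beta* was 2.89 times the level of *cac* at 40 h and 6.64 times at 21 h. *cac* stood at 1.07 times the level of *stj* at 40 h and 0.501 times at 21 h.

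*Frq1* (chromosome X, 18155369 to 18174744) and *Frq2* (chromosome X, 18177612 to 18204407) encode frequenin, a calcium sensor that modulates release, and lie 2867 bases apart on the same strand. *Frq1* had 10.3 FPKM at 40 h, against 1.27 at 21 h, 8.08-fold higher, and *Frq2* had 14.1 FPKM at 40 h, against 3.01 at 21 h, 4.68-fold higher. How reads matching both genes were divided, if there were any, was not tested. *Frq2* had the higher level of the pair at both stages.

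The 7 synaptotagmins held both the largest fall and the largest increase among the 39 genes with a mean of at least 1 FPKM. *Sytbeta* (FBgn0261090, chromosome 3L, 15014695 to 15064977) had 1.23 FPKM at 40 h, against 35.9 at 21 h, a log2 ratio of -4.76, and only 0.741% of the 9442 genes had a lower ratio. It made up 0.364% of the summed synaptotagmin level at 40 h and 13.3% at 21 h. The table lists 13 other genes at its locus, none sharing exon bases with it, and their highest levels were 0.138 FPKM at 40 h and 0.499 at 21 h. *Syt12* (FBgn0261085, chromosome X, 13359248 to 13368179) had 8.15 FPKM at 40 h, against 0.947 at 21 h, 8.61-fold higher. Its first rank depends on the pseudocount: with 1 FPKM the log2 ratio of *Frq1* was 2.31 and that of *Syt12* 2.23.

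*Syt1* (FBgn0004242, chromosome 2L, 2772327 to 2799979), the calcium sensor for fast synchronous release, had 119 FPKM at 40 h, against 69.6 at 21 h, a log2 ratio of 0.77. *Syt4* (FBgn0028400, chromosome 3R, 7266065 to 7270809), known in fly muscle as a postsynaptic calcium sensor, was the most abundant synaptotagmin at both stages, with 150.2 FPKM at 40 h, against 122 at 21 h. *Syt7* had 52.2 FPKM at 40 h, against 36.6 at 21 h. *Syt4* kept 44.5% of the summed level at 40 h and 45.1% at 21 h, while *Syt1* had 35.3% at 40 h and 25.7% at 21 h. *Syt14* had 5.46 FPKM at 40 h, against 5.32 at 21 h, and 24.4% of its exon bases are shared, mostly with Suv3 on the opposite strand. *Sytalpha* was at 0.874 FPKM at 40 h, against 0.191 at 21 h, under the mean at which a change was called.

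**Figure D4:**
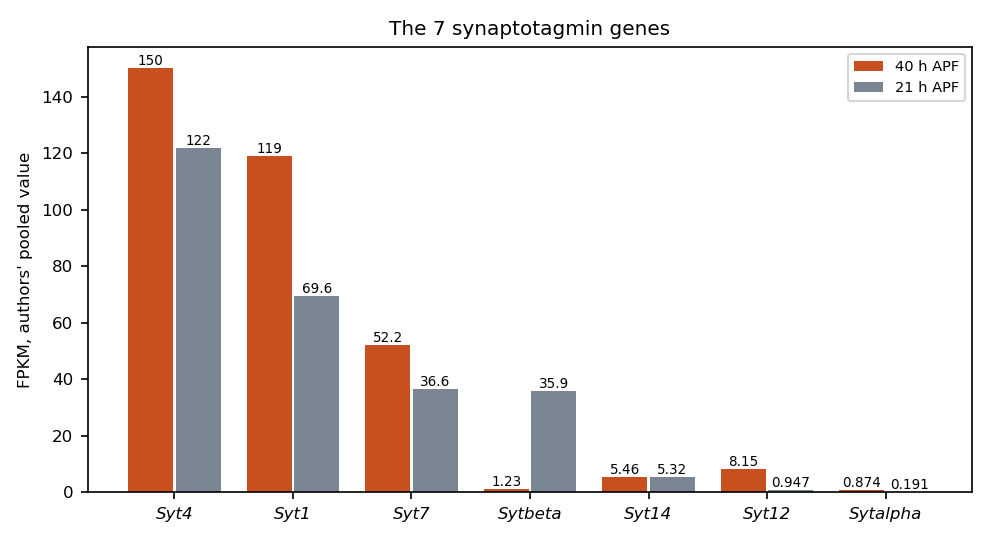
Level in FPKM, on a linear axis from 0, of the 7 synaptotagmin genes at 40 h APF (orange) and 21 h APF (grey), 1 pooled value per bar, ordered by the level at 21 h. *Sytbeta*, with 1.23 FPKM at 40 h, against 35.9 at 21 h, stands near *Syt7* at 21 h and near the axis at 40 h.

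Of the further vesicle-associated genes, *Syn* (FBgn0004575, chromosome 3R, 10190689 to 10222442), which encodes synapsin, the protein that clusters vesicles in the reserve pool, had 70.9 FPKM at 40 h, against 22.4 at 21 h, 3.16-fold higher. *Sap47*, a synapse-associated protein of the terminal, had 98.8 FPKM at 40 h, against 63.1 at 21 h. *Syngr* (FBgn0033876, chromosome 2R, 13841761 to 13846255), the synaptogyrin gene, was on the other side, with 8.18 FPKM at 40 h, against 13.9 at 21 h, a log2 ratio of -0.76, which is under 2-fold.

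Of the 8 endocytosis genes, *nwk* and *stnB* were called higher, *stnA* was under the minimum mean, and the other 5 had log2 ratios between 0.25 and 0.83. *nwk* (FBgn0263456, chromosome 3L, 9137860 to 9145693), an F-BAR protein that shapes endocytic membrane and limits synapse growth, had 46.6 FPKM at 40 h, against 16.3 at 21 h, 2.86-fold higher. *shi*, the dynamin that cuts vesicles off the membrane, had 69.9 FPKM at 40 h, against 53.2 at 21 h, and *lap*, the clathrin adaptor AP180, had 65.4 FPKM at 40 h, against 53.8 at 21 h. *EndoA*, endophilin, had 93.4 FPKM at 40 h, against 52.4 at 21 h, whereas *Synj*, the phosphatase synaptojanin that acts with it, was lower, at 19.6 FPKM at 40 h, against 14.5 at 21 h. *Dap160*, the scaffold intersectin, had 48.3 FPKM at 40 h, against 40.5 at 21 h.

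*stnB* (FBgn0016975) and *stnA* (FBgn0016976) are the reading frames of the stoned locus (chromosome X, 22980722 to 23004648), where the annotation gives them the same exon bases. The table lists *stnB* at 57.1 FPKM at 40 h, against 27.4 at 21 h, and *stnA* at 0.0273 FPKM at 40 h, against 0.000678 at 21 h. Since reads cannot tell the pair apart, these are better read as 1 level of 57.2 FPKM at 40 h, against 27.4 at 21 h, 2.09-fold higher, and the low values of *stnA* say nothing of its own expression.

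*Nrx-1* (FBgn0038975, chromosome 3R, 22468512 to 22486969), the presynaptic adhesion receptor neurexin, had 60.6 FPKM at 40 h, against 27.4 at 21 h, 2.21-fold higher. Its neuroligin partners were lower in level. *Nlg2* (chromosome 2L, 6874900 to 6906656) had 15.8 FPKM at 40 h, against 4.18 at 21 h, 3.77-fold higher, and *Nlg4* (chromosome 3R, 20204809 to 20245473) had 6.21 FPKM at 40 h, against 1.08 at 21 h, 5.75-fold higher. *Nlg3* had 12.0 FPKM at 40 h, against 6.10 at 21 h, a log2 ratio of 0.97, just under the limit. *Nlg1*, a neuroligin of the neuromuscular junction, was at 0.0611 FPKM at 40 h, against 0.184 at 21 h. *Nlg3* was the highest of the neuroligins at 21 h, with 52.8% of their summed level, and *Nlg2* at 40 h, with 46.3%.

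Neither regulator of synapse growth was called in either direction. *hiw*, the ubiquitin ligase Highwire, had 17.2 FPKM at 40 h, against 13.02 at 21 h. Its target *wnd*, the kinase that promotes growth and injury signaling, had 45.1 FPKM at 40 h, against 63.5 at 21 h, a log2 ratio of -0.49, and 21.1% of the 9442 genes had a lower ratio.

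Many of the 42 genes are long, which the choice by symbol did not use. Their median span was 23927 bases, with a median of 11 separate exon blocks, against 2988 bases and 4 blocks in the 8728 protein-coding genes with a mean of at least 1 FPKM. The spans ran from 2638 bases in *Rop* to 225026 bases in *Snap25*, and *Rop*, *Syx1A* and *EndoA* each have 1 exon block. Longer genes were called higher more often across the table: of 1720 protein-coding genes of at least 10 kb with that mean, 25.6% were called higher and 8.08% lower, and their median log2 ratio was 0.22. Among the 29 synaptic genes of at least 10 kb, 14 were called higher and 1 lower, and among the 13 shorter ones 2, *Syt12* and *nwk*, were called higher and 0 lower, against 10% higher and 9.25% lower in the 7008 protein-coding genes under 10 kb with that mean. The span of 10 kb was chosen after the values were seen, and the part of gene length in the result was not tested.

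By position, 14 of the 42 genes lie on chromosome 3R, 9 on X, 7 on 3L, 5 on 2L, 4 on 2R and 3 on chromosome 4. The 3 on chromosome 4 (*unc-13*, *Cadps* and *Syt7*) all stayed under 2-fold. Several lie close to each other. *stj* and *Syngr* are 22189 bases apart on opposite strands of 2R, and their log2 ratios were 1.15 and -0.76. *cpx* and *Syt14* are 9850 bases apart on 3R, with ratios of 1.14 and 0.036. For 22 of the 42 genes the table gives a locus that some further gene also has, and 5 have more than 10% of their exon bases in common with another. Among the 20 genes with a locus of their own, 5 were called higher and 0 lower, with a median log2 ratio of 0.53, against 13.6% higher, 10.5% lower and a median of -0.024 in the 4477 genes of the table with such a locus and a mean of at least 1 FPKM.

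Of 25 further presynaptic genes in the table, 7 were called higher and 0 lower, beside 13.9% and 9.62% of the 9442 genes. Their median log2 ratio was 0.55, and 9 of them had a ratio below 0. *X11Lbeta* had 41.5 FPKM at 40 h, against 82.7 at 21 h, just under the 2-fold limit. *Rab27*, under the minimum mean, had 0.293 FPKM at 40 h, against 1.17 at 21 h. The largest change was that of *para*, the voltage-gated sodium channel of action potentials, with 16.5 FPKM at 40 h, against 0.946 at 21 h. *Liprin-gamma* had 39.3 FPKM at 40 h, against 15.2 at 21 h, and *Mctp* had 3.45 FPKM at 40 h, against 0.573 at 21 h. The most abundant of them at 40 h, *CaMKII*, had 167 FPKM at 40 h, against 137 at 21 h. The scaffold gene *Fife* was low, at 1.53 FPKM at 40 h, against 0.701 at 21 h. Of 4 other calcium channel genes 3 were called higher, among them *CG4587*, with 58.96 FPKM at 40 h, against 26.5 at 21 h, whereas *Ca-alpha1T*, the T-type channel, had 33.6 FPKM at 40 h, against 31.9 at 21 h.

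Clathrin coats and general SNAREs serve membrane traffic in every cell. Of 12 genes listed for endocytosis with clathrin and AP-2, 1 was called higher and 0 lower, with a median log2 ratio of 0.26. The called gene was *Amph*, amphiphysin, with 66.1 FPKM at 40 h, against 21.6 at 21 h. The genes of clathrin and of the AP-2 adaptor themselves all stayed under 2-fold. The clathrin heavy chain *Chc* had 202 FPKM at 40 h, against 193 at 21 h. Of 23 genes of general SNAREs and their partners, 2 were called higher and 0 lower, with a median of 0.42. These were *Syx4*, at 3.62 FPKM at 40 h, against 1.11 at 21 h, and *Syx17*, at 32.3 FPKM at 40 h, against 10.6 at 21 h. Over the 9442 genes, 13.9% were called higher and 9.62% lower. The differences between these lists and the 42 genes were not tested.

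**Figure D5:**
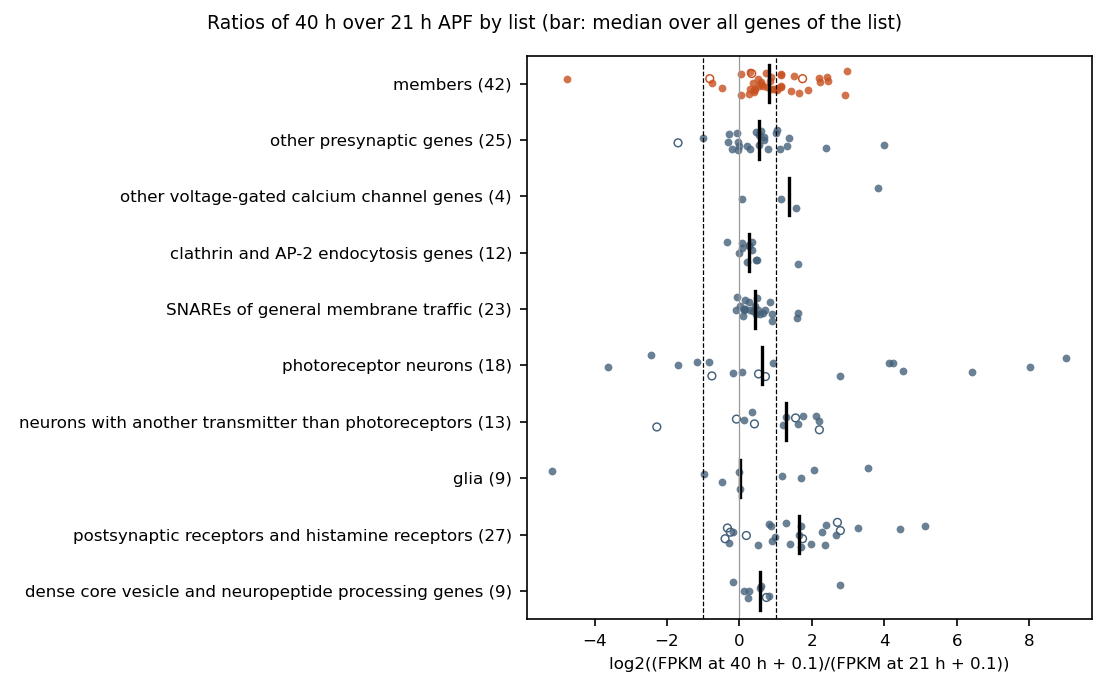
Log2 ratio of 40 h over 21 h APF for each gene of 10 lists (points; open points are genes under a mean of 1 FPKM, vertical jitter only separates them), with the number of genes in parentheses. Black bars are medians over all genes of a list, 0.80 for the 42 synaptic genes, 0.55 for other presynaptic genes, 0.26 for clathrin and AP-2 endocytosis genes and 0.42 for general SNAREs. Dashed lines mark 2-fold.

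Whole eyes hold photoreceptors, bristle neurons, cone and pigment cells and glia, and in bulk RNA more cells of a type cannot be told apart from more RNA per cell. The pan-neuronal gene *elav* had 89.6 FPKM at 40 h, against 84.9 at 21 h, and the glial gene *repo* had 40.4 FPKM at 40 h, against 40.5 at 21 h, both within 2-fold. Beside the marker counts that follow, 13.9% of the 9442 genes were called higher and 9.62% lower. Of 18 photoreceptor genes, 7 were called higher and 4 lower: *trp* had 35.2 FPKM at 40 h, against 0.0349 at 21 h, while *chp* had 164 FPKM at 40 h, against 370 at 21 h. The major rhodopsin *ninaE* was listed at 0 at 40 h and at 0.0694 FPKM at 21 h, and *Hdc*, which makes histamine, had 2.76 FPKM at 40 h, against 0.317 at 21 h. Of 13 markers of neurons that use another transmitter, 6 were called higher, 0 lower, and 5 were under the minimum mean, with a sum of 76.5 FPKM at 40 h, against 28.7 at 21 h. The highest of them was *VGlut*, with 29.8 FPKM at 40 h, against 8.67 at 21 h, and none was at 0. *ChAT* and *Gad1* were within 2-fold, and *Ddc*, under the minimum mean, had 0.191 FPKM at 40 h, against 1.31 at 21 h. Glial markers summed to 349.7 FPKM at 40 h, against 362 at 21 h, with 4 of 9 called higher and 1 lower. Single glial genes moved both ways, from *alrm*, with 23.2 FPKM at 40 h, against 1.89 at 21 h, to *gcm*, with 0.114 FPKM at 40 h, against 7.60 at 21 h. Of 12 muscle markers, 2 were called higher and 2 lower, but 7 were under the minimum mean, and with no minimum 8 were higher. Their median log2 ratio was 1.72, with *Mhc*, the muscle myosin heavy chain, at 0.794 FPKM at 40 h, against 0.0214 at 21 h. Their sum was 40.2 FPKM at 40 h, against 63.2 at 21 h, most of it from *sls*, the titin homologue, with 21.7 FPKM at 40 h, against 44.5 at 21 h. Of the other cell types, 2 of 11 fat body markers were called higher and 0 lower with 4 under the minimum mean, 3 of 11 hemocyte markers higher and 1 lower with 5 under it, and 1 of 6 bristle organ markers higher and 0 lower with 3 under it. Fat body markers summed to 64.3 FPKM at 40 h, against 74.3 at 21 h, hemocyte markers to 216 FPKM at 40 h, against 88.3 at 21 h, and bristle organ markers to 80.6 FPKM at 40 h, against 59.3 at 21 h. The hemocyte genes called higher were *Col4a1*, *Pxn* and *vkg*, whereas *Hml*, *NimC1*, *eater* and *srp* were under 1 FPKM at both stages. Among bristle organ markers *nompA* had 43.2 FPKM at 40 h, against 1.04 at 21 h, and *sv* had 35.2 FPKM at 40 h, against 56.9 at 21 h. *sv* thus made up most of their sum at 21 h, and which cells of the eye expressed it was not tested. *nompC*, *iav* and *nan* were under 1 FPKM at both stages. The part of other cells in the changes of the synaptic genes was not tested.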

How the data were processed

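Whole pupal eyes of *Canton S* were profiled by paired-end RNA-seq from TruSeq libraries, 3 at 40 h and 3 at 21 h APF. The authors aligned reads to BDGP6 with Bowtie2, which does not split reads across introns, and took levels from Cuffdiff, with bias correction and geometric scaling of the libraries, over the genes of Ensembl release 93. How the loss of reads across introns bears on ratios between the levels of different genes was not tested. Tool versions are not given in the sources used here. The deposited values are FPKM, 1 per gene and stage, pooled over replicates, so depth, SD and intervals cannot be had from them. The table also holds the authors' fold changes, test scores, p-values and q-values, which were not used.

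Log2 ratios were computed with a pseudocount of 0.1 FPKM. A gene was called at a 2-fold change and a mean of at least 1 FPKM. Positions, spans and exon overlap came from Ensembl release 115 on the same assembly, which holds 17512 of the table's identifiers, and 34 more were matched by symbol and position. Every synaptic gene was reported. Of the other lists, the most abundant gene and up to 4 past the fold rule were to be named; some other genes were named after their values were seen. The 42 genes and the lists were chosen with earlier results of these data known. Alternatives were pseudocounts of 0.01 and 1, minimums of 0 and 10 FPKM, 1.5-fold and 3-fold limits, centring, rescaling, and leaving out genes with shared exons or loci. Python 3.11.15, numpy 2.4.6, pandas 2.3.3 and matplotlib 3.10.9 were used. A planned search for promoter motifs was not run, since no genome sequence was used here.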

Additional observations from a re-analysis of the deposited data

How the results depend on the processing

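Under the other pseudocounts, centring and rescaling, each of the 42 genes kept its call, the counts stayed at 16 higher and 1 lower, and the median log2 ratio stayed within 0.1 of 0.80. The minimum mean alone kept 3 low genes uncalled in some of these settings. The log2 ratio of *Sytalpha* was 1.74, and 0.65 with a pseudocount of 1. That of *stnA* was 0.34, and 1.81 with a pseudocount of 0.01, and that of *Nlg1* was -0.82, against -1.45 with a pseudocount of 0.01 and -1.04 after rescaling. A minimum mean of 10 FPKM left 10 genes called higher, because fewer genes could be called, and a 3-fold limit left 8, beside 8.82% of all genes. A 1.5-fold limit gave 24 genes higher and 2 lower, the second being *Syngr*, beside 21.8% of all genes higher and 17.5% lower. Without genes listed at the same locus as another gene, 20 synaptic genes were left, of which 5 were called higher and 0 lower, with a median of 0.53, beside 13.6% higher, 10.5% lower and a median of -0.024 over all genes so chosen. *Sytbeta* was among those left out. Over genes of at least 10 kb, an alternative added after the data were seen, the median of the 29 synaptic genes was 1.04, beside 0.22 for all such genes. With no minimum mean, 8 muscle markers were higher, and after rescaling 5 were. No paired analysis was possible because the table holds 1 pooled value per stage, and for the same reason no replicate could be left out. No difference of any size can be set against replicate spread here, those near 2-fold and those at levels under 1 FPKM included.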

Other observations

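Neurotransmitter receptors sit on the receiving side of synapses. Of 27 receptor genes for acetylcholine, GABA, glutamate and histamine, 13 were called higher at 40 h and 0 lower. Over the 9442 genes the shares were 13.9% and 9.62%. Of the receptor genes, 7 were under the minimum mean, and with a minimum of 10 FPKM 7 were called higher. Their median log2 ratio was 1.65. The difference from the median of 0.80 in the 42 synaptic genes was not tested. The largest change was that of *nAChRbeta1*, with 88.0 FPKM at 40 h, against 2.44 at 21 h, followed by the GABA receptor gene *Rdl*, with 37.4 FPKM at 40 h, against 1.64 at 21 h. The highest level in the list was that of *nAChRalpha7*, 429 FPKM at 40 h, against 232 at 21 h. Of the histamine receptor genes, *HisCl1* had 56.5 FPKM at 40 h, against 28.4 at 21 h, and *ort*, the receptor of lamina neurons, was at 0.810 FPKM at 40 h, against 0.0395 at 21 h. Among the glutamate receptor genes of the neuromuscular junction the highest was *GluRIIE*, with 1.35 FPKM at 40 h, against 0.714 at 21 h.

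Of 9 genes in the table that were listed for neuropeptide processing or dense core vesicles, *Cadps* among them, 1 was called higher and 0 lower. The called gene was *Rgk1*, with 13.98 FPKM at 40 h, against 1.95 at 21 h, and its part in either process was not checked here. No other gene of the list was called, whereas over the 9442 genes 13.9% were called higher and 9.62% lower. The convertase gene *amon* had 16.2 FPKM at 40 h, against 18.4 at 21 h, and *Phm*, which amidates peptides, had 46.4 FPKM at 40 h, against 42.8 at 21 h.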
